A study of Homo sapiens with 9 samples.

Results

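BRD2, BRD3, CDK9, CCNT1, CCNT2, HEXIM1, HEXIM2, LARP7 and MEPCE encode BET proteins, the elongation kinase P-TEFb and the proteins that hold P-TEFb inactive. These 9 genes were taken by symbol from a table of 27800 gene symbols, as named parts of this machinery, although earlier results of these data were known when they were chosen. All 9 were listed. A gene was tested when it reached 1 TPM (transcripts per 1000000, a level corrected for transcript length and for the total of the library) in at least 3 of the 9 libraries, which 13573 genes did. The 9 genes were at 2.0 TPM or more in every library, so that none of them passed through a single group.

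Total RNA of Huh7, an established line from a human hepatocellular carcinoma, was sequenced in 9 libraries. Vehicle-treated cells gave 3 libraries, cells given 5 uM FIDAS-5 for 48 h gave 3, and cells given 0.5 uM JQ1 for 48 h gave 3. FIDAS-5 inhibits MAT2A, the enzyme that makes the methyl donor S-adenosylmethionine, and JQ1 occupies the bromodomains of the BET proteins. All groups were of this 1 line in the same serum-containing medium, and the labels give neither the solvent nor the time for vehicle. Nothing in them states that replicates were separate cultures, and the p-values therefore rest on a spread between libraries that may be technical. Each compound was given at 1 dose, and the doses differ, so that FIDAS-5 and JQ1 values stand side by side and are not matched in dose. Both were compared with the same 3 vehicle libraries.

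BET proteins bind acetylated histones through paired bromodomains and help to bring P-TEFb to active genes. P-TEFb is a pair of CDK9 with a cyclin, CCNT1 or CCNT2, and it phosphorylates RNA polymerase II and the factors that hold the polymerase paused near a start site. Much of the P-TEFb in a cell is kept inactive on the small nuclear RNA 7SK (gene RN7SK), where HEXIM1 or HEXIM2 inhibits the kinase, LARP7 binds the 3′ end of the RNA and MEPCE caps its 5′ end. HEXIM1 was first described as a gene induced by hexamethylene bisacetamide and is widely used as a transcript that responds to BET inhibitors.

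Because HEXIM proteins recognise GATC (GAUC in the RNA) in the 5′ hairpin of 7SK, the first 100 of the 328 bases of the RN7SK transcript (GENCODE v29, gene at chromosome 6 from 52995620 to 52995951, plus strand) are shown, with the 3 GATC copies in capitals. Capitals mark every match of these letters, and which copies lie in that hairpin was not determined. RN7SK, the RNA bound by HEXIM1 and HEXIM2:
RN7SK: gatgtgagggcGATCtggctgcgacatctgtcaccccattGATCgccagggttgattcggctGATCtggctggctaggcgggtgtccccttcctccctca

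HEXIM1 (chromosome 17 from 45148475 to 45152099, plus strand) has a single exon, and HEXIM2 (45160174 to 45170040, plus strand) starts 8074 bases beyond its end. The windows from 250 bases before to 50 bases after annotated starts (RefSeq, GRCh38.p14) are shown for this pair, whose levels differed in response to JQ1, and for CDK9 and BRD3, whose levels rose with it. Capitals mark CCAAT boxes (CCAAT), GC boxes (GGGCGG) and TATA boxes (TATAAA), searched on both strands. A pair of the GC boxes of BRD3 overlap by 2 letters. The BRD3 window lies inside the annotated gene, which reaches 134068548, so that the start it surrounds is not the outermost one.
HEXIM1, chr17:45148225-45148524, plus strand: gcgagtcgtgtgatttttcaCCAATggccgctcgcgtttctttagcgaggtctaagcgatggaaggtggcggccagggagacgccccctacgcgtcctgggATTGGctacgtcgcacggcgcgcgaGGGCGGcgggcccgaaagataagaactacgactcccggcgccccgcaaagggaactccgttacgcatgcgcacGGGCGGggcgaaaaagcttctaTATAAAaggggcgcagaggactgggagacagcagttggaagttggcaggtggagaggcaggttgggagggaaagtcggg
HEXIM2, chr17:45161625-45161924, plus strand: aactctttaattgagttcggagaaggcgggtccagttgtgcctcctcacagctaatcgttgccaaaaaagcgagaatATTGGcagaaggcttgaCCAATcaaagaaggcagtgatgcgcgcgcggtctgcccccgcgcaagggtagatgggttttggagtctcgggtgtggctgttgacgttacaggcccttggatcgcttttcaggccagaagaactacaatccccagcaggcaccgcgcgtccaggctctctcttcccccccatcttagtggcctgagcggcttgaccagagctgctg
CDK9, chr9:127785784-127786083, plus strand: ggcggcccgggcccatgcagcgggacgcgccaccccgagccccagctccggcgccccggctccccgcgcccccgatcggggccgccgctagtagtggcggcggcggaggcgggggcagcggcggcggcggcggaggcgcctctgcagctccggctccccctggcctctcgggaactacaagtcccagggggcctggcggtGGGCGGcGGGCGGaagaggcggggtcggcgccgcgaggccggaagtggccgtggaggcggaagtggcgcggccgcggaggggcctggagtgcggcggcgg
BRD3, chr9:134067977-134068276, minus strand: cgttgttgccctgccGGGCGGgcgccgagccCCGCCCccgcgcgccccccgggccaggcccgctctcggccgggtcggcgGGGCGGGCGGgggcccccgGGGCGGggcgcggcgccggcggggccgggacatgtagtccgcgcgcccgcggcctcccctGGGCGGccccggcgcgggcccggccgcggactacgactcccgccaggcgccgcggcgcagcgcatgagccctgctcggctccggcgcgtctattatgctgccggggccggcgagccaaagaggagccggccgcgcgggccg
The HEXIM1 window held 2 CCAAT boxes, 2 GC boxes and 1 TATA box. RefSeq gives HEXIM2 a pair of windows. The one shown held 2 CCAAT boxes and neither of the other motifs, the one at the upstream start (chr17:45159924-45160223) held 0 of every motif searched, the CDK9 window held 2 GC boxes, and the BRD3 window held 6. BRD2 also rose with JQ1, and its windows, not shown, held 1, 1, 0 and 1 GC boxes and 0 of the other motifs. Over the 17 windows of the 9 genes, 6 held a CCAAT box, 12 a GC box, 1 a TATA box (that of HEXIM1) and 2 an E-box (CACGTG). Among all 35116 windows of the same length, 34.6% held a CCAAT box, 45.0% a GC box, 11.5% a TATA box and 7.3% an E-box. A match describes letters in a window and does not show that a factor binds there.

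The 9 libraries held 12229 to 13014 genes at 1 TPM or more, and protein-coding genes took 27.6 to 34.0% of the TPM of a library. TPM keeps no read counts, so that the depth is unknown. Within each group, libraries correlated across genes with Pearson's r from 0.952 to 0.975. Departures from the group mean followed transcript GC content across 13025 genes, which are not independent, with Spearman's rho of 0.56 in FIDAS-5 replicate 3 and 0.64 in JQ1 replicate 3, and -0.51 and -0.66 in replicate 1 of these groups. Genes of the labelled cell type were high, with ALB at 826 TPM or more, AFP at 612 or more and HNF4A at 67.5 or more in every library. Of 11 markers of other cell types, 6 were tested. The remaining 5 were low, with KRT7 at 0, VWF, ACTA2 and COL1A1 at most 0.192 TPM and PTPRC at most 0.918 TPM. LYZ and PECAM1 rose with FIDAS-5 and fell with JQ1, KRT19 (0.641 to 4.21 TPM, log2 fold change 1.28 with JQ1, limma adjusted p = 0.00586) and COL1A2 (0.499 to 1.58 TPM, 0.51, adjusted p = 0.0268) rose with JQ1, and EPCAM (2.90 to 11 TPM) and CD14 (1.59 to 2.85 TPM) were called with neither. The COL1A2 call was lost under 5 of 19 alternatives, among them leaving out any of vehicle replicates 2 and 3 and JQ1 replicates 1 and 2 (adjusted p at most 0.104). Mean COL1A2 was 0.719 TPM for vehicle, 0.565 for FIDAS-5 and 1.42 for JQ1. COL1A2 thus met the filter of 1 TPM only through the JQ1 libraries, where it was higher, and its call is no independent result. Mean KRT19 was 0.852 TPM for vehicle, 2.03 for FIDAS-5 and 3.53 for JQ1. KRT19 may thus have met the filter through treated libraries, where it was higher, and its call is no independent result either. The summed leukocyte markers were 106 to 128 TPM in vehicle, 230 to 285 with FIDAS-5 and 12.3 to 17.5 with JQ1, nearly all of it LYZ (9.89 to 283), and the summed endothelial markers, nearly all PECAM1 (1.28 to 16.5), were 6.52 to 9.83, 15.3 to 16.5 and 1.28 to 1.61 TPM. The summed cholangiocyte markers were 6.31 to 6.89 TPM in vehicle, 8.05 to 14.4 with FIDAS-5 and 5.39 to 9.17 with JQ1, and the summed fibroblast markers 0.589 to 1.22, 0.627 to 0.833 and 1.51 to 1.73 TPM. Their part in the results was not tested.

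With JQ1, 4 of the 9 genes rose against vehicle and 0 fell, by limma's test across all genes with Benjamini-Hochberg adjustment (called at an adjusted p under 0.05). HEXIM1 rose most, followed by BRD2, CDK9 and BRD3. In the same comparison 38.5% of all tested genes were called, 19.0% higher and 19.4% lower. The median log2 fold change was 0.19 over the 9 genes and -0.01 over all tested genes. With FIDAS-5, 0 of the 9 genes were called against vehicle, and 3 (BRD2, BRD3 and CDK9) had an unadjusted p under 0.05. There 20.2% of all tested genes were called, 12.6% higher and 7.60% lower, and the medians were -0.08 for the 9 genes and -0.02 for all. Between the compounds, HEXIM1 and BRD3 were higher with JQ1 and 0 of the 9 genes were lower, with 34.8% of all tested genes called, 16.4% higher and 18.5% lower, and medians of 0.27 and 0.05. Fold changes here and below are on the log2(TPM + 1) scale, which understates the change of genes at a few TPM. In bulk RNA, fewer cells of a type and less RNA per cell cannot be told apart.

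**Figure D1:**
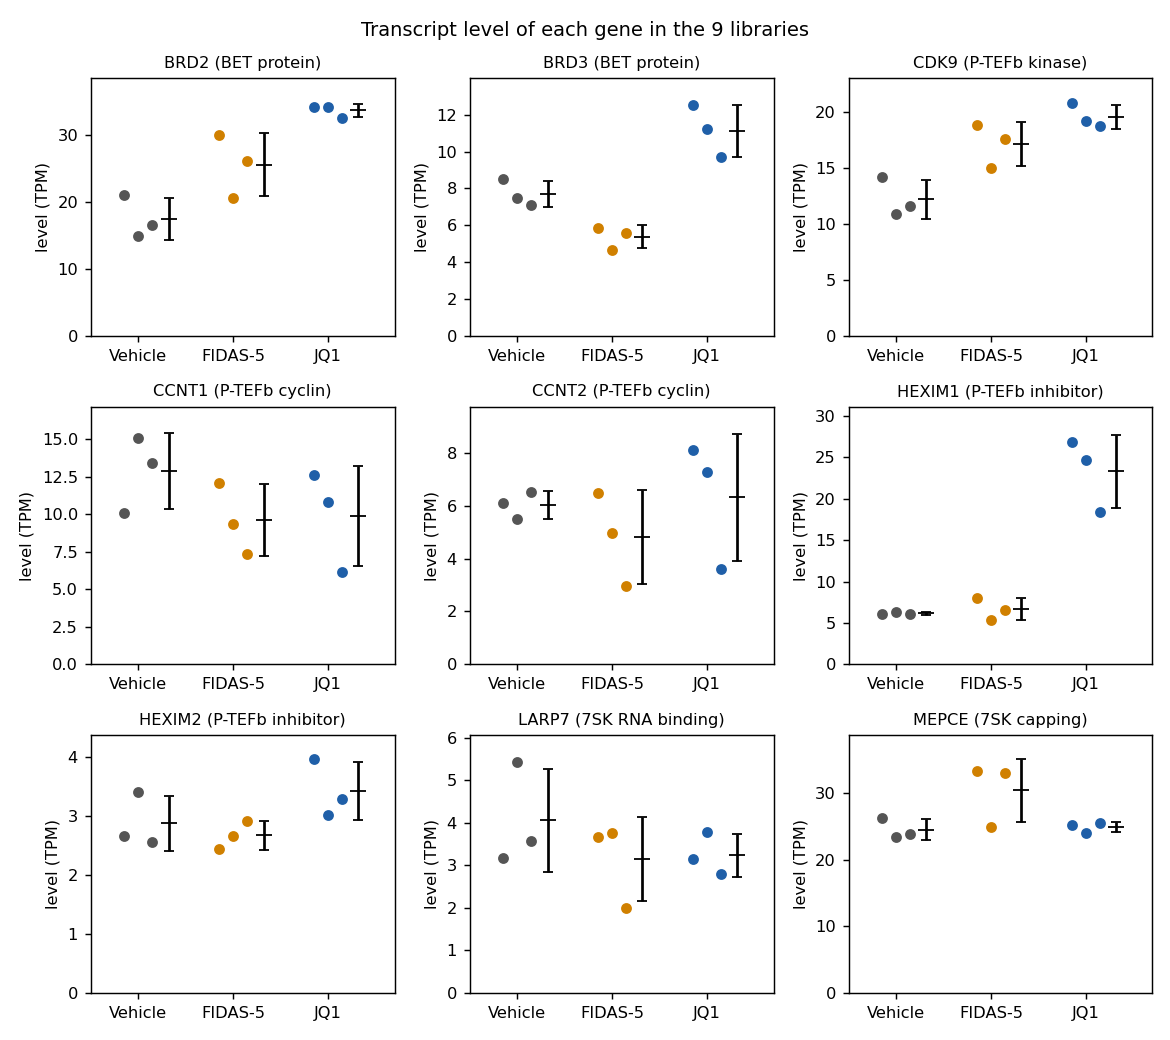
Level in TPM (vertical axes, from 0) of each of the 9 genes in the 3 vehicle, 3 FIDAS-5 and 3 JQ1 libraries; points are libraries, in the order of their replicate numbers, and the bar beside them is the mean with its SD. HEXIM1 stood at 18.4 TPM or more in the JQ1 libraries and at 8.05 or less elsewhere, BRD3 was lowest in the FIDAS-5 libraries, and the cyclins were lowest in replicate 3 of both compounds.

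BRD2, a BET protein expressed in most tissues (chromosome 6 from 32968594 to 32981505), was at 21.0, 15 and 16.5 TPM in the vehicle libraries, 30.0, 20.6 and 26.1 with FIDAS-5 and 34.2, 34.2 and 32.6 with JQ1. All 3 JQ1 libraries lay above all 6 others, and the FIDAS-5 libraries overlapped with vehicle only through FIDAS-5 replicate 2 and vehicle replicate 1. BRD2 rose from 17.5 ± 3.09 TPM (SD, n = 3) to 33.7 ± 0.964 with JQ1, a log2 fold change of 0.92 (SE 0.17, limma adjusted p = 0.00300). It was called under all 20 alternative settings, at 0.82 to 1.05. With FIDAS-5 it averaged 25.6 ± 4.72 TPM, and the log2 fold change was 0.52 (95% interval 0.14 to 0.91, limma adjusted p = 0.0620). This value passed the threshold under 7 of 20 alternatives, among them leaving out vehicle replicate 1 (0.65, adjusted p = 0.0320) or FIDAS-5 replicate 2 (0.66, adjusted p = 0.0345). BRD2 was 0.40 higher with JQ1 than with FIDAS-5 (95% interval 0.01 to 0.78, limma adjusted p = 0.102).

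BRD3, another BET protein (chromosome 9 from 134030305 to 134068548, minus strand), was at 8.49, 7.49 and 7.11 TPM in vehicle, 5.85, 4.66 and 5.61 with FIDAS-5 and 12.5, 11.2 and 9.68 with JQ1. The 3 groups did not overlap, with FIDAS-5 lowest and JQ1 highest. The direct comparison gave a log2 difference of 0.93 (SE 0.14, limma adjusted p = 0.00107), from 5.38 ± 0.627 TPM with FIDAS-5 to 11.1 ± 1.39 with JQ1 (SD, n = 3), and it was called under all 20 alternatives. Against the shared vehicle libraries (7.70 ± 0.709 TPM), the values were -0.45 with FIDAS-5 (95% interval -0.77 to -0.13, limma adjusted p = 0.0515) and 0.48 with JQ1 (0.16 to 0.79, limma adjusted p = 0.0248). The JQ1 call was lost when vehicle replicate 2 (adjusted p = 0.0589), vehicle replicate 3 (0.0907), JQ1 replicate 1 (0.0869) or JQ1 replicate 2 (0.0757) was left out. With the trend on GC content removed from each library, BRD3 was at 0.25 with JQ1 (adjusted p = 0.0926) and at -0.77 with FIDAS-5 (adjusted p = 0.00103). The FIDAS-5 value passed the threshold under 8 of 20 alternatives, among them leaving out JQ1 replicate 3, which changes only the shared spread (adjusted p = 0.0388).

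The ratio of BRD2 to BRD3 within a library, which does not depend on how much of the library other RNAs take, was 2.47, 2.0 and 2.32 in vehicle, 5.14, 4.42 and 4.64 with FIDAS-5 and 2.75, 3.05 and 3.36 with JQ1. The 3 groups did not overlap, and the ratio was highest with FIDAS-5 (2.0-fold the vehicle median, log2 difference 1.0). The exact two-sided permutation test of 3 libraries against 3 cannot go below 0.1, the value reached in all 3 comparisons of this ratio (adjusted p = 0.15 over 24 ratio comparisons).

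BRDT, the BET protein known from male germ cells (chromosome 1 from 91949371 to 92014428), was listed at 7.27, 6.46 and 7.62 TPM in vehicle, 7.38, 6.67 and 4.39 with FIDAS-5 and 7.82, 7.05 and 4.41 with JQ1. Its vehicle libraries overlapped with those of BRD3, and its lowest values were those of replicate 3 of both compounds. The log2 fold change was -0.16 with JQ1 (95% interval -0.66 to 0.35, limma adjusted p = 0.612) and -0.21 with FIDAS-5 (-0.71 to 0.30, adjusted p = 0.562).

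Strand use of the libraries is not stated, so that reads of a gene and of an overlapping antisense gene may not be told apart. BRD3OS, which overlaps BRD3 by 4362 bases on the other strand, was at 3.09 to 3.76 TPM, with log2 fold changes of -0.04 for both compounds. HLA-DMA, which GENCODE v29 annotates over 435 bases of the other strand at BRD2, averaged 0.500 TPM in the vehicle libraries, 3.72 in the FIDAS-5 libraries and 0.346 in the JQ1 libraries, and its fold change with FIDAS-5 was 1.66 (limma adjusted p = 2.80e-04). It met the filter of 1 TPM only through the FIDAS-5 libraries, where it was high. In RefSeq, HLA-DMA ends at 32953097, before the start of BRD2 at 32968594, and the genes do not overlap. The part of HLA-DMA in the BRD2 values with FIDAS-5 was not tested.

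**Figure D2:**
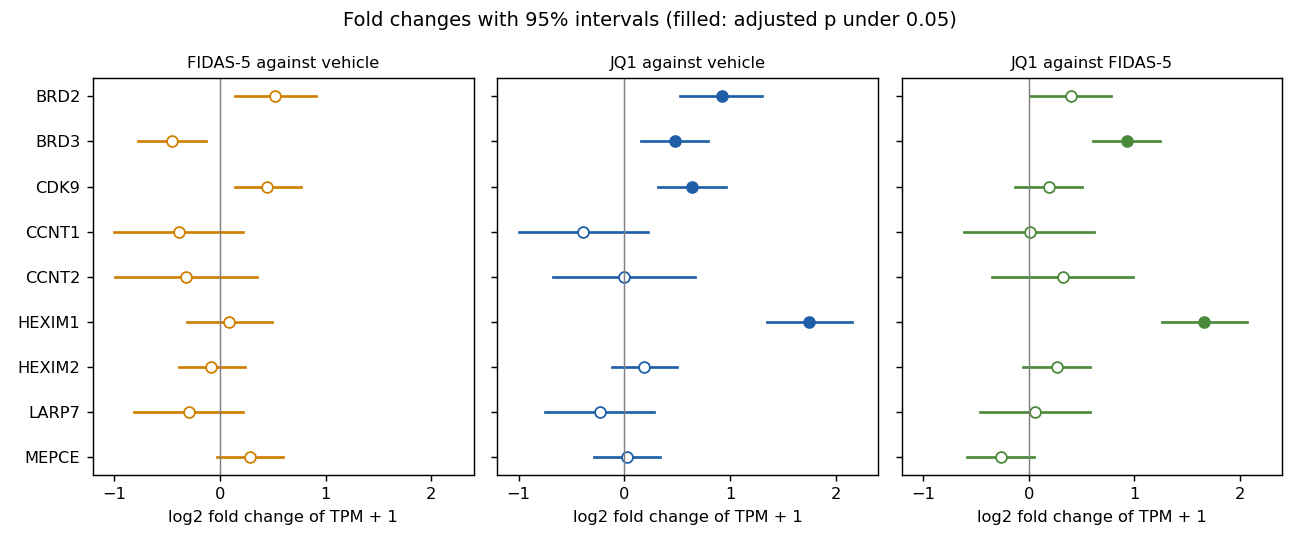
Log2 fold change of TPM + 1 (horizontal axes) for each of the 9 genes in the 3 comparisons; points are estimates over 3 libraries a group, lines are 95% intervals and filled points have an adjusted p under 0.05. With JQ1 the filled points are BRD2 (0.92), BRD3 (0.48), CDK9 (0.64) and HEXIM1 (1.75), with FIDAS-5 there are none, and between the compounds they are BRD3 (0.93) and HEXIM1 (1.66).

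CDK9, the kinase of P-TEFb (chromosome 9 from 127786034 to 127790792), was at 14.2, 10.9 and 11.6 TPM in vehicle, 18.9, 15 and 17.6 with FIDAS-5 and 20.8, 19.2 and 18.8 with JQ1. All 6 treated libraries lay above all 3 vehicle libraries, and the 2 compounds overlapped. CDK9 rose from 12.3 ± 1.74 to 19.6 ± 1.07 TPM with JQ1 (SD, n = 3), which was 0.64 on the log2 scale (SE 0.14, limma adjusted p = 0.00676), and was called under all 20 alternatives (0.49 to 0.75). With FIDAS-5 it averaged 17.2 ± 1.95 TPM, a log2 fold change of 0.45 (95% interval 0.14 to 0.77, limma adjusted p = 0.0507). That value passed the threshold under 7 of 20 alternatives, among them leaving out vehicle replicate 1 (0.56, adjusted p = 0.0270) or FIDAS-5 replicate 2 (0.54, adjusted p = 0.0471), and it was 0.21 (adjusted p = 0.0867) once the GC trend was removed. The compounds differed by 0.19 (95% interval -0.13 to 0.50, limma adjusted p = 0.341).

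CCNT1, the major cyclin partner of CDK9 (chromosome 12 from 48688458 to 48716707, minus strand), was at 10.1, 15.1 and 13.4 TPM in vehicle, 12.1, 9.37 and 7.34 with FIDAS-5 and 12.6, 10.8 and 6.16 with JQ1. The groups overlapped, and each compound spanned a wide range with replicate 3 lowest. The log2 fold change was -0.39 for both compounds, with a 95% interval of -1.0 to 0.22 (limma adjusted p = 0.341 with FIDAS-5 and 0.290 with JQ1). CCNT1 passed the threshold under 0 of 20 alternatives in every comparison. Without replicate 3 of both compounds the values were -0.23 with FIDAS-5 and -0.11 with JQ1.

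CCNT2, the alternative cyclin (chromosome 2 from 134918822 to 134959342), was at 6.08, 5.48 and 6.53 TPM in vehicle, 6.49, 4.98 and 2.97 with FIDAS-5 and 8.10, 7.27 and 3.59 with JQ1. Replicate 3 of each compound again held the lowest value, below all vehicle libraries, while JQ1 replicates 1 and 2 lay above them. The log2 fold change was -0.32 with FIDAS-5 (95% interval -0.99 to 0.35, limma adjusted p = 0.489) and -0.00 with JQ1 (-0.67 to 0.67, adjusted p = 1.0). Without replicate 3 of both compounds CCNT2 was at -0.07 and 0.31. The transcripts of CCNT1 and CCNT2 have a GC content of 42.4 and 41.1%, against 57.8% for CDK9, and replicate 3 of both compounds is where departures were highest for GC-rich genes. With the GC trend removed, CCNT1 was at -0.21 with FIDAS-5 and -0.22 with JQ1, and CCNT2 at -0.12 and 0.17.

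The summed cyclins relative to CDK9 were 1.14, 1.88 and 1.71 in vehicle, 0.986, 0.955 and 0.587 with FIDAS-5 and 0.994, 0.943 and 0.518 with JQ1. All 6 treated libraries had less cyclin transcript than CDK9 transcript, and all 3 vehicle libraries had more. The medians were 0.557-fold and 0.550-fold that of vehicle (exact permutation p = 0.1 for each, the smallest possible, adjusted p = 0.15). The lowest ratio of each compound was that of replicate 3, and the lowest of vehicle that of replicate 1, where departures also rose with GC content (Spearman's rho 0.39). The ratio was not computed with the GC trend removed. With that trend removed, CDK9 was at 0.21 with FIDAS-5 (limma adjusted p = 0.0867) and 0.49 with JQ1 (adjusted p = 0.00114). The part of GC content in this ratio was not tested. On the log2 scale the differences were -0.84 with FIDAS-5 and -0.86 with JQ1, and without vehicle replicate 2 they were -0.55 and -0.57. CCNT1 to CCNT2 was 1.67, 2.75 and 2.05 in vehicle, 1.87, 1.88 and 2.47 with FIDAS-5 and 1.56, 1.48 and 1.72 with JQ1. Both compounds overlapped with vehicle, and JQ1 lay below FIDAS-5 without overlap, at 0.827-fold its median (exact permutation p = 0.1, adjusted p = 0.15).

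HEXIM1, which binds 7SK RNA and then inhibits CDK9, was at 6.08, 6.33 and 6.06 TPM in vehicle, 8.05, 5.40 and 6.61 with FIDAS-5 and 26.8, 24.7 and 18.4 with JQ1. Every JQ1 library lay above every other library, and FIDAS-5 libraries lay on both sides of vehicle. With JQ1 it rose 3.79-fold in mean TPM (6.16 ± 0.153 to 23.3 ± 4.40, SD, n = 3). The log2 fold change was 1.75 (SE 0.18, 95% interval 1.35 to 2.15, limma adjusted p = 1.30e-04), which ranked 439 of 13573 by p-value. It was called under all 20 alternatives, at 1.64 to 1.90, and was 1.90 without replicate 3 of both compounds, since JQ1 replicate 3 was the lowest of its group. With FIDAS-5 the log2 fold change was 0.09 (95% interval -0.31 to 0.49, limma adjusted p = 0.765). The direct comparison of JQ1 with FIDAS-5 gave 1.66 (SE 0.18, limma adjusted p = 1.42e-04), called under all 20 alternatives.

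HEXIM2, the paralog on the same strand of chromosome 17, was at 2.65, 3.41 and 2.56 TPM in vehicle, 2.43, 2.66 and 2.91 with FIDAS-5 and 3.96, 3.01 and 3.29 with JQ1. The 3 groups lay close together, and JQ1 overlapped with vehicle. The log2 fold change was 0.19 with JQ1 (95% interval -0.12 to 0.50, limma adjusted p = 0.313) and -0.08 with FIDAS-5 (-0.39 to 0.24, adjusted p = 0.744), and between the compounds it was 0.27 (-0.05 to 0.58, adjusted p = 0.173). The upper limit of the JQ1 interval for HEXIM2, 0.50, lay below the lower limit for HEXIM1, 1.35.

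HEXIM1 to HEXIM2 within a library was 2.29, 1.86 and 2.37 in vehicle, 3.32, 2.03 and 2.27 with FIDAS-5 and 6.78, 8.22 and 5.58 with JQ1. All JQ1 libraries were above all others, at 2.96-fold the vehicle median (exact permutation p = 0.1, the smallest possible, adjusted p = 0.15), and FIDAS-5 overlapped with vehicle. The sum of HEXIM1 and HEXIM2 relative to CDK9 was 0.613, 0.891 and 0.741 in vehicle, 0.555, 0.535 and 0.542 with FIDAS-5 and 1.48, 1.45 and 1.15 with JQ1. The 3 groups did not overlap: inhibitor transcripts exceeded CDK9 transcripts in the JQ1 libraries alone, and FIDAS-5 libraries were the lowest, at 0.731-fold the vehicle median. These comparisons of the HEXIM sum with CDK9 also reached the smallest possible exact permutation p of 0.1 (adjusted p = 0.15). With the GC trend removed, CDK9 was at 0.21 with FIDAS-5 (limma adjusted p = 0.0867), HEXIM1 at 0.11 (adjusted p = 0.391) and HEXIM2 at -0.41 (adjusted p = 0.119). The ratio of the HEXIM sum to CDK9 was not computed with that trend removed, and the part of GC content in it was not tested. Relative to the summed cyclins, the HEXIM sum had a vehicle median of 0.474, a FIDAS-5 median of 0.563 and a JQ1 median of 1.54, again without overlap. FIDAS-5 replicate 3, at 0.923, stood apart from replicates 1 and 2, at 0.563 and 0.561. These are ratios of transcripts and say nothing of the proteins or of their binding.

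**Figure D3:**
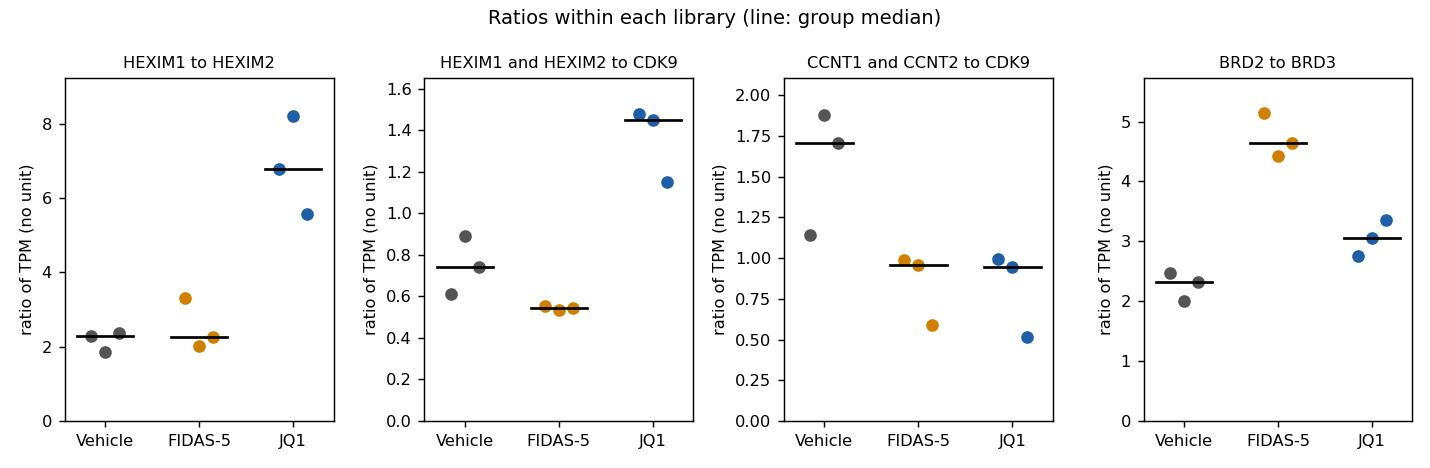
Ratios of TPM within each library (vertical axes, from 0, no unit) in the vehicle, FIDAS-5 and JQ1 groups; points are libraries and lines are group medians. JQ1 libraries are highest for HEXIM1 to HEXIM2 (5.58 to 8.22) and for the HEXIM sum to CDK9 (1.15 to 1.48), both compounds are below vehicle for the cyclin sum to CDK9, and FIDAS-5 is highest for BRD2 to BRD3 (4.42 to 5.14).

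LARP7, the La-related protein that stabilises 7SK RNA (chromosome 4 from 112637143 to 112657586), was at 3.17, 5.44 and 3.58 TPM in vehicle, 3.66, 3.77 and 2.0 with FIDAS-5 and 3.15, 3.79 and 2.79 with JQ1. The groups overlapped, with vehicle replicate 2 the highest of all libraries. LARP7 had a log2 fold change of -0.29 with FIDAS-5 (95% interval -0.81 to 0.22, limma adjusted p = 0.407) and -0.23 with JQ1 (-0.75 to 0.28, adjusted p = 0.451). ZGRF1, which overlaps LARP7 by 32 bases on the other strand, had log2 fold changes of -0.69 with FIDAS-5 and -0.42 with JQ1 (limma adjusted p = 0.00362 and 0.0190).

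MEPCE, the capping enzyme of 7SK RNA (chromosome 7 from 100428790 to 100434118), was at 26.3, 23.4 and 23.9 TPM in vehicle, 33.3, 24.9 and 33.1 with FIDAS-5 and 25.2, 24.1 and 25.6 with JQ1. JQ1 libraries lay inside the range of vehicle, and FIDAS-5 replicates 1 and 3 lay above all vehicle libraries. MEPCE had a log2 fold change of 0.03 with JQ1 (95% interval -0.29 to 0.34, limma adjusted p = 0.902) and 0.29 with FIDAS-5 (-0.03 to 0.60, adjusted p = 0.187), and the latter was -0.04 with the GC trend removed. LARP7 to MEPCE had a vehicle median of 0.150, a FIDAS-5 median of 0.110 and a JQ1 median of 0.125, and the groups overlapped.

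RN7SK itself held 14.9, 19.1 and 17.1% of the TPM of the vehicle libraries, 13.9, 17.2 and 12.5% with FIDAS-5 and 10.6, 12.3 and 13.8% with JQ1. The JQ1 libraries were all below vehicle, with a log2 fold change of -0.47 (95% interval -0.86 to -0.09, limma adjusted p = 0.0521). This value passed the threshold under 8 of 19 alternatives, among them leaving out JQ1 replicate 3 (-0.57, adjusted p = 0.0375) and quantile normalization (-0.71, adjusted p = 0.00165). Quantile normalization sets a value by its rank within a library, so that its figure does not measure the share that RN7SK held. The threshold was not passed under median-of-ratios scaling (adjusted p = 0.143). With FIDAS-5 the log2 fold change of RN7SK was -0.24 (limma adjusted p = 0.364). RN7SK has many near-identical copies in the genome and none of them is listed under its own symbol in the table, so that its level is uncertain. RN7SK relative to the HEXIM sum was 17038, 19645 and 19855 in vehicle, 13237, 21303 and 13176 with FIDAS-5 and 3459, 4443 and 6386 with JQ1, which is 0.226-fold the vehicle median (exact permutation p = 0.1, the smallest possible, adjusted p = 0.15).

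In order of mean TPM, vehicle cells held MEPCE (24.5), BRD2 (17.5), CCNT1 (12.9), CDK9 (12.3), BRD3 (7.70), HEXIM1 (6.16), CCNT2 (6.03), LARP7 (4.06) and HEXIM2 (2.88). In that order BRD2 overlapped with CCNT1, CCNT1 with CDK9, HEXIM1 with CCNT2 and LARP7 with HEXIM2. MEPCE lay above BRD2, CDK9 above BRD3, BRD3 above HEXIM1 and CCNT2 above LARP7 without overlap. With JQ1, BRD2 (33.7) came first, above MEPCE (25.0) in every library, and HEXIM1 (23.3) moved from rank 6 to rank 3, overlapping with MEPCE and CDK9 (19.6). With FIDAS-5, CDK9 (17.2) stood above CCNT1 (9.61) without overlap, and BRD3 (5.38) overlapped with HEXIM1 (6.69) and CCNT2 (4.81).

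Beyond these 9 genes, the super elongation complex is the assembly of AFF, ELL and MLLT proteins that carries active P-TEFb. Of its 9 genes, 0 were called with JQ1 by limma, and 4 had an unadjusted p under 0.05. These were MLLT1 at 0.53 (adjusted p = 0.0629), the elongation factor ELL at 0.35 (adjusted p = 0.0647), the scaffold AFF1 at 0.81 (adjusted p = 0.0821) and, lower, EAF2 at -0.38 (adjusted p = 0.0834). The median of the 9 was 0.35, against -0.01 for all genes. For this list and those below, the shares of all tested genes called are 38.5% with JQ1 and 20.2% with FIDAS-5. Without replicate 3 of both compounds 4 of these genes were called higher with JQ1, and 3 with the GC trend removed. With FIDAS-5, ELL alone of the 9 rose, by 0.56 (limma adjusted p = 0.0162). ELL was not called once vehicle replicate 3 or either of FIDAS-5 replicates 1 and 3 was left out (adjusted p at most 0.0725). EAF2 and EAF1, which bind the ELL proteins, were lower with JQ1 than with FIDAS-5 (log2 difference -0.62, limma adjusted p = 0.0142, and -0.65, adjusted p = 0.0337). The EAF2 call was lost without JQ1 replicate 1 (adjusted p = 0.0533), and the EAF1 call under 9 of 20 alternatives, 6 of them single libraries of all 3 groups left out (adjusted p at most 0.138).

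The pausing factors NELF and DSIF hold the polymerase until P-TEFb acts. Of 6 genes, 1 rose and 2 fell with JQ1. The DSIF subunit SUPT5H rose from 26.0 to 37.3 TPM (log2 fold change 0.50, limma adjusted p = 0.0164). NELFCD fell from 41.0 to 26.8 TPM (-0.59, adjusted p = 0.00696) and NELFA from 8.34 to 5.81 (-0.46, adjusted p = 0.0163). With FIDAS-5, 1 of 6 was called, SUPT5H at 0.50 (adjusted p = 0.0297), and this call was lost under 9 of 20 alternatives, among them leaving out any vehicle library, either of FIDAS-5 replicates 1 and 3, or the second JQ1 library (adjusted p at most 0.120). SUPT5H was not called with JQ1 when JQ1 replicate 2 was left out (adjusted p = 0.0635), nor was NELFA without replicate 3 of both compounds (adjusted p = 0.0534).

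The PAF1 complex and SPT6 travel with the polymerase once it is released. With JQ1, 1 of 8 genes rose, SUPT6H from 18.9 to 31.9 TPM (0.72, limma adjusted p = 0.00535), and 2 fell, PAF1 from 35.9 to 24.6 TPM (-0.53, adjusted p = 0.0151) and LEO1 from 6.61 to 3.58 (-0.75, adjusted p = 0.0209). PAF1 was not called without JQ1 replicate 2 (adjusted p = 0.0507), and LEO1 was not called when the third library of vehicle or of JQ1 was left out (adjusted p at most 0.0792). With FIDAS-5, SUPT6H reached 31.0 TPM and was the 1 gene of 8 called (0.67, adjusted p = 0.0140), but no longer when vehicle replicate 3 or either of FIDAS-5 replicates 1 and 3 was left out (adjusted p at most 0.0621).

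Of 13 other kinases and cyclins of transcription, 2 rose and 1 fell with JQ1. CCNH, the cyclin of the TFIIH kinase, fell from 16.9 to 8.97 TPM (-0.85, limma adjusted p = 0.00507) under all 20 alternatives. CCNL2 rose by 0.64 (adjusted p = 0.0189) and CDK13, a kinase of elongating polymerase, by 0.71 (adjusted p = 0.0364), and these calls were lost under 4 and 7 of 20 alternatives. For CCNL2 the libraries whose removal ended the call were vehicle replicates 1 and 3 and JQ1 replicates 1 and 2 (adjusted p at most 0.0739). For CDK13 they were vehicle replicates 2 and 3, FIDAS-5 replicate 2 and JQ1 replicates 1 and 2 (adjusted p at most 0.118). With FIDAS-5, 0 of the 13 were called by limma and 0 had an unadjusted p under 0.05. The median was 0.00 with FIDAS-5 and -0.09 with JQ1.

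Of 13 factors that bind 7SK RNA once P-TEFb has left it, or that help to release P-TEFb, 3 fell with each compound and 0 rose, where 7.60% of all tested genes fell with FIDAS-5 and 19.4% with JQ1. SRSF1, a splicing factor that also binds 7SK, fell from 101 TPM to 43.7 with FIDAS-5 (-1.22, limma adjusted p = 0.0192) and to 39.5 with JQ1 (-1.39, adjusted p = 0.00574). HNRNPA1, which binds 7SK after P-TEFb has left, fell from 235 to 125 TPM with FIDAS-5 (-0.92, adjusted p = 0.0256) and to 142 with JQ1 (-0.77, adjusted p = 0.0311). SRSF2 fell with FIDAS-5 (-0.75, adjusted p = 0.0494) and the helicase DDX21 with JQ1 (-1.39, adjusted p = 0.0257). The medians of the 13 were -0.67 with FIDAS-5 and -0.40 with JQ1, against -0.02 and -0.01 for all genes. These counts moved with the setting: over the alternatives 0 to 9 were lower with FIDAS-5 and 1 to 8 with JQ1, with the highest counts after the GC trend was removed, and without replicate 3 of both compounds they were 4 and 2. SRSF1 with JQ1 was called under all 20 alternatives. With FIDAS-5, each of the 3 calls was lost when any of replicates 2 and 3 of vehicle or of FIDAS-5 was left out (adjusted p at most 0.0721 for SRSF1, 0.0961 for HNRNPA1 and 0.165 for SRSF2), and that of SRSF2 also without vehicle replicate 1, FIDAS-5 replicate 1 or JQ1 replicate 2. With JQ1, DDX21 was not called without any 1 of the vehicle libraries (adjusted p at most 0.0733), nor HNRNPA1 without any 1 of them or JQ1 replicate 2 or 3 (adjusted p at most 0.104). JMJD6, described in the release of P-TEFb from 7SK, was lower with JQ1 than with FIDAS-5 (-0.77, adjusted p = 0.00674), under all 20.

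**Figure D4:**
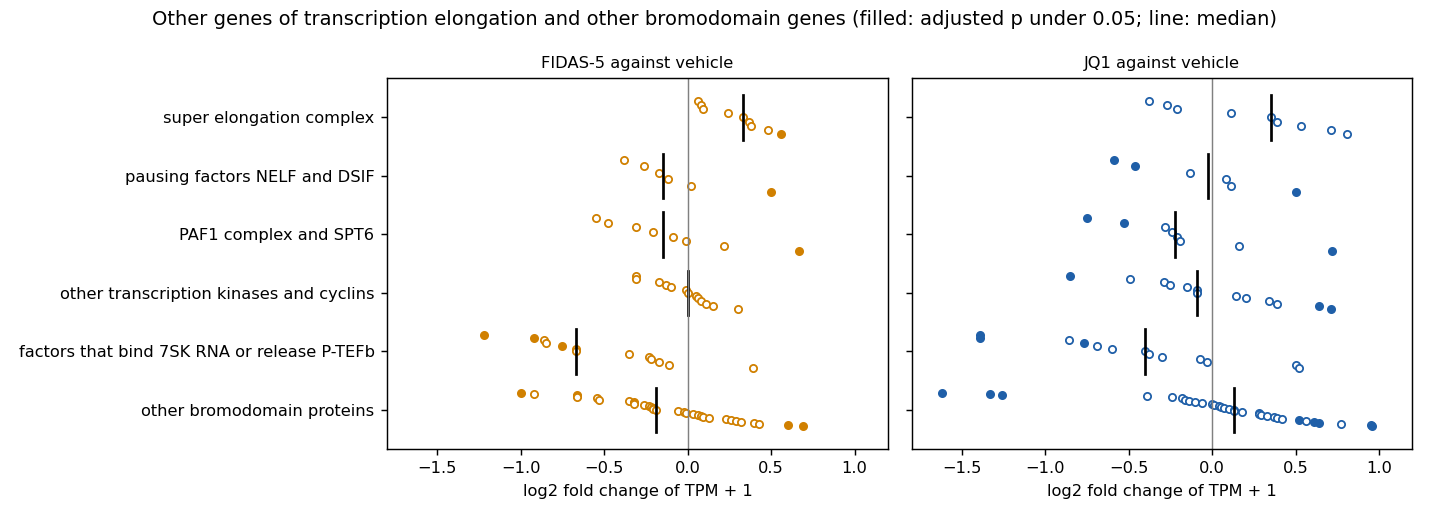
Log2 fold change of TPM + 1 (horizontal axes) of each tested gene in 6 lists around P-TEFb and BET proteins, with FIDAS-5 (left) and JQ1 (right) against vehicle; points are genes, filled where the adjusted p is under 0.05, and bars are list medians. Factors that bind 7SK RNA or release P-TEFb have medians of -0.67 and -0.40, and the lists hold points on both sides of 0 with JQ1.

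Of 38 other bromodomain proteins, which are not BET proteins apart from BRDT, 33 were tested. With JQ1, 4 rose and 3 fell, where 19.0% and 19.4% of all tested genes did. ZMYND8, a reader of acetylated histones, fell from 8.12 to 1.95 TPM (-1.62, limma adjusted p = 1.42e-04), the acetyltransferase KAT2A from 16.1 to 5.82 (-1.33, adjusted p = 2.28e-04) and SP140L from 2.56 to 0.495 (-1.26, adjusted p = 4.93e-04). All 3 were also lower with JQ1 than with FIDAS-5, by -1.91, -1.32 and -1.34, under every alternative that tested them. BRD1 rose from 5.39 to 8.80 TPM (0.61, adjusted p = 0.00488) and TRIM66 from 0.850 to 1.89 TPM (0.64, adjusted p = 0.00991), both under every alternative that tested them. TRIM66 averaged under 1 TPM in vehicle and with FIDAS-5 (0.936), so that it may have passed the filter through the JQ1 libraries. KAT2B, the paralog of KAT2A, was at 0.96 (adjusted p = 0.0466) and BRPF3 at 0.52 (adjusted p = 0.0359), calls that were lost under 9 and 5 of 20 alternatives. Both were lost when any of vehicle replicates 2 and 3 and JQ1 replicates 1 and 2 was left out, and KAT2B also without vehicle replicate 1 or FIDAS-5 replicate 2 (adjusted p at most 0.142 for KAT2B and 0.103 for BRPF3). Over the alternatives 2 to 12 of the 33 were higher with JQ1, 12 with the GC trend removed and 7 without replicate 3 of both compounds. With FIDAS-5, BRPF3 (0.69) and SP100 (0.60) rose and ATAD2 (-1.0) fell, at adjusted p of 0.0191, 0.0450 and 0.0443, and each was lost under 5 or more alternatives, among them leaving out vehicle replicate 2, vehicle replicate 3 or FIDAS-5 replicate 3 (adjusted p at most 0.0769 for BRPF3, 0.130 for SP100 and 0.148 for ATAD2).

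By root mean square difference between log2(TPM + 1) profiles over the 9 libraries, each centred on its own mean, the protein-coding genes most like HEXIM1 among 7180 with a mean of at least 5 TPM were GLDC (0.14), ZSWIM6 (0.15), RRAGC (0.17), TSPYL4 (0.17) and HHEX (0.17). GLDC, of the glycine cleavage system, averaged 29.7 TPM in the vehicle libraries, 25.8 in the FIDAS-5 libraries and 90.5 in the JQ1 libraries, and the homeobox gene HHEX 22.6, 23.9 and 70.9. RRAGC, a Rag GTPase of amino acid sensing, averaged 3.86, 4.60 and 15.2 TPM. The genes most like BRD2 were PIGT (0.06), GBF1 (0.07), MED29 (0.08), P3H1 (0.08) and PI4K2A (0.08). PIGT, of the GPI anchor transamidase, averaged 18.8, 27.0 and 36.5 TPM, and the Mediator subunit MED29 15.1, 21.6 and 29.1. These rankings are descriptions over 9 libraries that share their groups.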

How the data were processed

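TPM values by gene symbol were deposited by the authors, whose processing notes name Salmon and build hg38; the Salmon version and annotation are not given in the sources used here. Symbols were matched to RefSeq (25681 as current symbols, 1134 as synonyms, 985 unmatched) and GC content came from GENCODE v29. Genes that reached 1 TPM in 3 or more of the 9 libraries were tested on log2(TPM + 1) with limma 3.58.1 in R 4.3.3 (a mean per group, empirical Bayes without trend, 6 residual and 2.86 prior degrees of freedom), two-sided, with Benjamini-Hochberg adjustment over 13573 genes. Ratios within a library were tested by exact permutation in SciPy 1.17.1, and the fit was tested on simulated data. Alternatives were a pseudocount of 0.1, no filter, a 5 TPM filter, median-of-ratios scaling, quantile normalization, protein-coding genes only, only the 6 libraries compared, a replicate block, a moderation trend and leaving out each library. Leaving out replicate 3 of both compounds and removing a lowess trend on GC content were added after the data were seen. The 9 genes and the gene lists were chosen with earlier results of these data known. Named were the 9 genes, RN7SK, up to 4 genes of each list with the smallest adjusted p and any other to describe its list, and 5 genes each most like HEXIM1 and BRD2. BRDT is named from its list, and genes that overlap or neighbour the 9 genes were named after their values were seen.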

Additional observations from a re-analysis of the deposited data

Results flagged for a closer look

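BRD3 stood on opposite sides of vehicle under the compounds. Every FIDAS-5 library lay below every vehicle library and every JQ1 library above them, and the direct comparison of JQ1 with FIDAS-5 gave a log2 fold change of 0.93 (limma adjusted p = 0.00107, called under all 20 alternatives). BRD3 was flagged for this pattern. Libraries on opposite sides of vehicle are also apart from each other, so the direct comparison is no independent result. How many of all tested genes share the pattern was not counted. Both compounds were compared with the same vehicle libraries. Against vehicle, BRD3 was not called with FIDAS-5 (-0.45, adjusted p = 0.0515) and was called with JQ1 (0.48, adjusted p = 0.0248), the latter not once the GC trend was removed (0.25, adjusted p = 0.0926). No cause was tested.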

How the results depend on the processing

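HEXIM1, BRD2 and CDK9 with JQ1, and HEXIM1 and BRD3 between the compounds, kept their direction and stayed called under all 20 alternatives, and no result reversed while called. Members called with FIDAS-5 against vehicle went from 0 to 1 higher with no filter, the 5 TPM filter, quantile normalization or the GC trend removed, and to 2 higher with median-of-ratios scaling or protein-coding genes only, with 1 lower under each of these. Members called higher with JQ1 than with FIDAS-5 went from 2 to 4 with the GC trend removed. Genes called with FIDAS-5 against vehicle were 2742, and 4433 with the GC trend removed; those lower were 1031, 1756 with quantile normalization and 2330 with the GC trend removed, so that the share of calls that were higher went from 62.4% to 52.0% and 47.4%. Between the compounds 4726 of 13573 genes were called, 2991 of 8619 with the 5 TPM filter, which tests fewer genes; those higher were 2220, 1325 with that filter and 3671 with the GC trend removed, and those lower were 2506 and 1666 with that filter. Leaving out single libraries gave 1639 to 3290 called with FIDAS-5 (1072 to 1858 higher, 548 to 1445 lower), 3924 to 5337 with JQ1 (1808 to 3125 higher, 1962 to 2600 lower) and 3394 to 5435 between the compounds (1369 to 3246 higher, 1970 to 2618 lower). Of the 9 genes it gave 0 to 2 higher and 0 to 1 lower with FIDAS-5, 3 to 4 higher and 0 lower with JQ1, and 2 higher and 0 to 1 lower between the compounds. The log2 differences of ratios moved, without single libraries, between -1.2 and -0.55 with FIDAS-5 and -1.29 and -0.57 with JQ1 for the cyclin sum to CDK9, -0.88 and -0.21 with FIDAS-5 and -0.58 and -0.09 with JQ1 for LARP7 to MEPCE, -0.47 and -0.20 for CCNT1 to CCNT2 between the compounds, 1.25 and 1.43 for the HEXIM sum to CDK9 between the compounds, 0.16 and 0.60 with FIDAS-5 and 1.60 and 1.96 with JQ1 for the HEXIM sum to the cyclins, and -0.58 and -0.23 for RN7SK to the HEXIM sum with FIDAS-5. Apart from the filter, the cause of these changes was not tested. The labels give all groups replicate numbers 1 to 3, but deviations of same-numbered libraries correlated at only -0.08 to 0.16 between vehicle and either compound (0.10 to 0.42 between the compounds), and not every library correlated best with its own number. With the number as a replicate block, 2 of the 9 genes were higher (BRD2, 0.52, adjusted p = 0.0428, and CDK9, 0.45, adjusted p = 0.0387) and 1 lower (BRD3, -0.45, adjusted p = 0.0492) with FIDAS-5, and 2891 genes were called. The 5 TPM filter gave no value for HEXIM2 and LARP7, and protein-coding genes only none for RN7SK. Without depth, no counting error can be given, and values at a few TPM are the least certain.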

Other observations

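The genes next to HEXIM1 on chromosome 17 were examined after the HEXIM1 values were seen. ACBD4, which ends at 45144176 before the start of HEXIM1, averaged 1.80 TPM in the vehicle libraries, 2.52 in the FIDAS-5 libraries and 3.83 in the JQ1 libraries, a log2 fold change of 0.79 with JQ1 (limma adjusted p = 0.00129). PLCD3, a phospholipase further upstream, had means of 1.44, 1.49 and 3.58 TPM, a log2 fold change of 0.93 with JQ1 (limma adjusted p = 0.00429). NMT1, beyond PLCD3, was at 0.14 (adjusted p = 0.422), and HEXIM2 lay between HEXIM1 and the genes downstream at 0.19 (adjusted p = 0.313). MAP3K14, farther downstream, was at 0.51 with JQ1 (adjusted p = 0.00804) and at 0.38 with FIDAS-5 (adjusted p = 0.0493), from a vehicle mean of 0.472 TPM. That mean is below the filter of 1 TPM. MAP3K14 was thus tested through treated libraries, where it was higher, and its calls are no independent result.

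Upstream of BRD2 on chromosome 6, the class II antigen loading genes HLA-DMB and HLA-DMA were higher with FIDAS-5, by log2 fold changes of 1.86 (limma adjusted p = 3.75e-05) and 1.66 (adjusted p = 2.80e-04). HLA-DMA met the filter only through the FIDAS-5 libraries. With JQ1, HLA-DMB fell from 3.19 to 0.995 TPM (-1.08, adjusted p = 2.48e-04), opposite to BRD2. Downstream of BRD2, RXRB was higher with JQ1 (0.65, adjusted p = 0.00588), as BRD2 was, SLC39A7 was higher with FIDAS-5 (0.68, adjusted p = 0.0103), and HSD17B8 was called with neither. These neighbours were also named after their values were seen.

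The microRNA symbol MIR367, which lies inside LARP7 on the other strand, was listed at 0.00 to 19.3 TPM. It was 3.14 higher on the log2 scale with JQ1 than with FIDAS-5 (limma adjusted p = 0.00443), while LARP7 differed by 0.06. MIR367 covers only 68 bases and its lowest value was 0.00 TPM, so that the size of this difference is uncertain. Against vehicle MIR367 was called with neither compound (-2.01 with FIDAS-5, adjusted p = 0.0505, and 1.13 with JQ1, adjusted p = 0.181). Of the other microRNA symbols inside LARP7, MIR302A reached at most 2.71 TPM, and MIR302B, MIR302C and MIR302D were at 0.00 in every library. Among hepatocyte genes, FGB (log2 fold change 3.26) and ALB (1.5) rose with JQ1 and TTR fell (-1.73).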
